A study of Mus musculus with 16 samples.

Results

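The genes of the cytosolic ribosomal proteins were followed gene by gene in nuclei of the mouse prefrontal cortex, whose RNA was sequenced nucleus by nucleus. Members were all rows of the count table whose symbol was Rpl or Rps with a digit, together with Rplp0, Rplp1, Rplp2 and Rpsa, without 3 pseudogene rows and 10 Rps6k kinase rows. This gave 84 of 19999 genes, 50 with a large subunit symbol (Rpl) and 34 with a small subunit symbol (Rps). Rps19bp1 entered by its symbol only, since it encodes a protein that binds a ribosomal protein. The 16 mice were males of 22 weeks, with 4 mice in each of 4 groups. WT controls and unexposed 3xTg-AD mice breathed air in the chambers, and the WT alcohol and 3xTg-AD alcohol groups received repeated cycles of intermittent alcohol vapor over several weeks. All 4 groups were injected with pyrazole, an inhibitor of alcohol dehydrogenase, and the alcohol groups also with ethanol. WT mice were labeled B6;129. The 3xTg-AD strain, kept on that background, carries, among its familial mutations, human APP and tau transgenes, both driven by the neuronal Thy1 promoter. The labels do not say whether mice of 1 group were littermates.

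The ribosome reads mRNA with its small subunit and joins amino acids in its large subunit. Each subunit holds a set of ribosomal RNAs and many small basic proteins that are needed in about equal numbers, so their genes are usually transcribed at matched high rates in every cell. Nuclei hold unspliced transcripts and the mRNA that has not yet been exported, and RNA set free from the cytoplasm can enter the droplets beside them.

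Together the 84 genes took 5428319 of 216742276 unique molecular identifiers (UMIs), or 2.50%, in 114512 nuclei. A mouse gave 4955 to 9096 nuclei and 9622031 to 17544364 UMIs. Some cell barcodes occurred in more than 1 mouse, so that distinct barcodes were 1706 fewer than nuclei. WT control mice 26 and 27 and 3xTg-AD mouse 12 stood apart in ribosomal RNA-like transcripts, which reached 30858, 20941 and 19338 CPM (counts per 1000000 counts) in them and no more than 5656 CPM in the rest, so that all 3 were in air groups. The nuclei were sorted into classes by 12 marker genes a class, none of them a ribosomal protein gene, when at least 3 markers had a UMI and at least 2 times as many as of any other class. Enough nuclei were found for 7 classes, from 54376 glutamatergic nuclei to 262 endothelial nuclei, whereas 42801 nuclei (37.4%) met no class and entered the sums over all nuclei only. Nuclei of no class had a median of 973 UMIs and held 2307263 of the member UMIs. Their summed member level was 39684 CPM, with 16276 CPM of mitochondrially encoded genes. How far they shape the levels and calls over all nuclei was not tested. Between 22.9% (endothelial) and 40.9% (microglia) of the nuclei of a class lay at the limit of the rule. In each class the median nucleus had UMIs of 4 to 6.5 of its own markers and of at most 1 marker of any other of the 7 classes. Fewer cells of a type and less RNA per cell cannot be told apart in sums over all nuclei.

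Promoter sequences are shown for members whose levels are described below, because ribosomal protein genes are known to start their transcripts inside a run of pyrimidines. The stretch from 60 bases before to 20 bases from the annotated start was read from the RefSeq annotation of GRCm38.p6, with each CTTTC on the coding strand in capitals. The Rpl35 window is chr2:39005112-39005191 on the minus strand, the Rps27 window chr3:90213629-90213708 on the minus strand, the Rps27rt window chr9:114982720-114982799 on the minus strand, and the Rpl10 window chrX:74270756-74270835 on the plus strand.
Rpl35: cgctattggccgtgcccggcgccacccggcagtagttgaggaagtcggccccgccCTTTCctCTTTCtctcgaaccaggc
Rps27: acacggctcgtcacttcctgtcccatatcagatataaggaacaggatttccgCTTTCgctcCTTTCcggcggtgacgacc
Rps27rt: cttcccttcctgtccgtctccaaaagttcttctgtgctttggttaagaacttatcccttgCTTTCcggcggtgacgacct
Rpl10: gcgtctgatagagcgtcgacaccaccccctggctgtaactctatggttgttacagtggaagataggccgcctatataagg
The windows of Rps27 and its retrogene copy Rps27rt shared a run of 19 bases, CTTTCcggcggtgacgacc. This run lies wholly after the annotated start in both windows, and so in transcribed sequence. A promoter was found for 64 of the 84 members. CTTTC on the coding strand lay within 30 bases of the start in 20 of these 64 promoters (31.2%), against 2103 of 27025 promoters of all genes (7.78%). On either strand and over 250 bases before to 50 bases after the start, 52 of the 64 (81.2%) and 15442 of the 27025 (57.1%) held it. The letters are a description of the windows and do not show which factor acts there.

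Over all nuclei, the members spanned a wide range of levels. Levels are given as CPM scaled by the TMM method of edgeR, and since the kit counts transcripts at their 3′ end, they are not divided by length. In each set of nuclei their base is the UMIs of the genes that passed the filter on low counts there, so that CPM of single mice run higher in rare classes, where fewer genes passed, and are not compared between sets. The highest was Rplp1, an acidic protein of the stalk that recruits elongation factors, at 919 ± 180 CPM (SD, n = 16 mice), between 619.8 CPM in 3xTg-AD mouse 12 and 1380.4 CPM in 3xTg-AD alcohol mouse 33. Rpl13 followed at 752 ± 145 CPM, Rps29, a small zinc-binding protein of the small subunit, at 680.0 ± 114 CPM, Rpl9 at 546 ± 112 CPM, and Rpl41, the shortest of the ribosomal proteins, at 536 ± 72.4 CPM. Rplp1 lay above Rpl13 in each of the 16 mice. The median member stood at 283 CPM and the lowest and highest deciles lay below 143 and above 485 CPM, and the highest was 3.25 times the median. The 6 highest members took 16.2% of the summed level.

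Of the stalk, Rplp0 reached 131 ± 25.4 CPM and Rplp2 286 ± 43.6 CPM, against the 919 CPM of Rplp1. Rpl5 and Rpl11, which bind the 5S ribosomal RNA together, stood at 214 ± 35.3 and 353 ± 75.6 CPM. Rps27a, which is made as a fusion with ubiquitin, had 466 ± 84.1 CPM, and Rps6, the target of the S6 kinases, had 153 ± 28.2 CPM. Rpl3, which lies near the peptidyl transferase center, had 446 ± 96.8 CPM. All of these are levels over all nuclei, with the SD over 16 mice.

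The lowest members were mostly variant copies. Rps27rt had 11.8 ± 4.02 CPM, Rps19bp1 24.3 ± 3.39 CPM, Rps27l, a copy of Rps27 known as a p53 target, 25.1 ± 5.17 CPM, and Rpl7l1, a relative of Rpl7 with a role in ribosome assembly, 28.7 ± 3.28 CPM. The muscle form Rpl3l had 47 UMIs in all and was the only member that did not pass the filter on low counts. By contrast the copies Rpl22l1 and Rpl36al stood near or above their parents, with 226 ± 36.8 CPM for Rpl22l1 against 116 ± 15.7 CPM for Rpl22, and 165 ± 24.9 CPM for Rpl36al against 162 ± 24.0 CPM for Rpl36a. Reads of near-identical copies cannot always be told apart by the counting. Of the windows of 50 bases in the coding transcripts of Rps27rt, 91.1% also occur in Rps27, against 51.4% of those of Rpl22l1 and 22.1% of those of Rpl36al in any other annotated gene. At least 50% of the windows were shared with other genes in 23 of 84 members. Within the bounds of 30 members the annotation also holds genes of small nucleolar RNAs, at most 5 in a member (Rpl4).

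**Figure D1:**
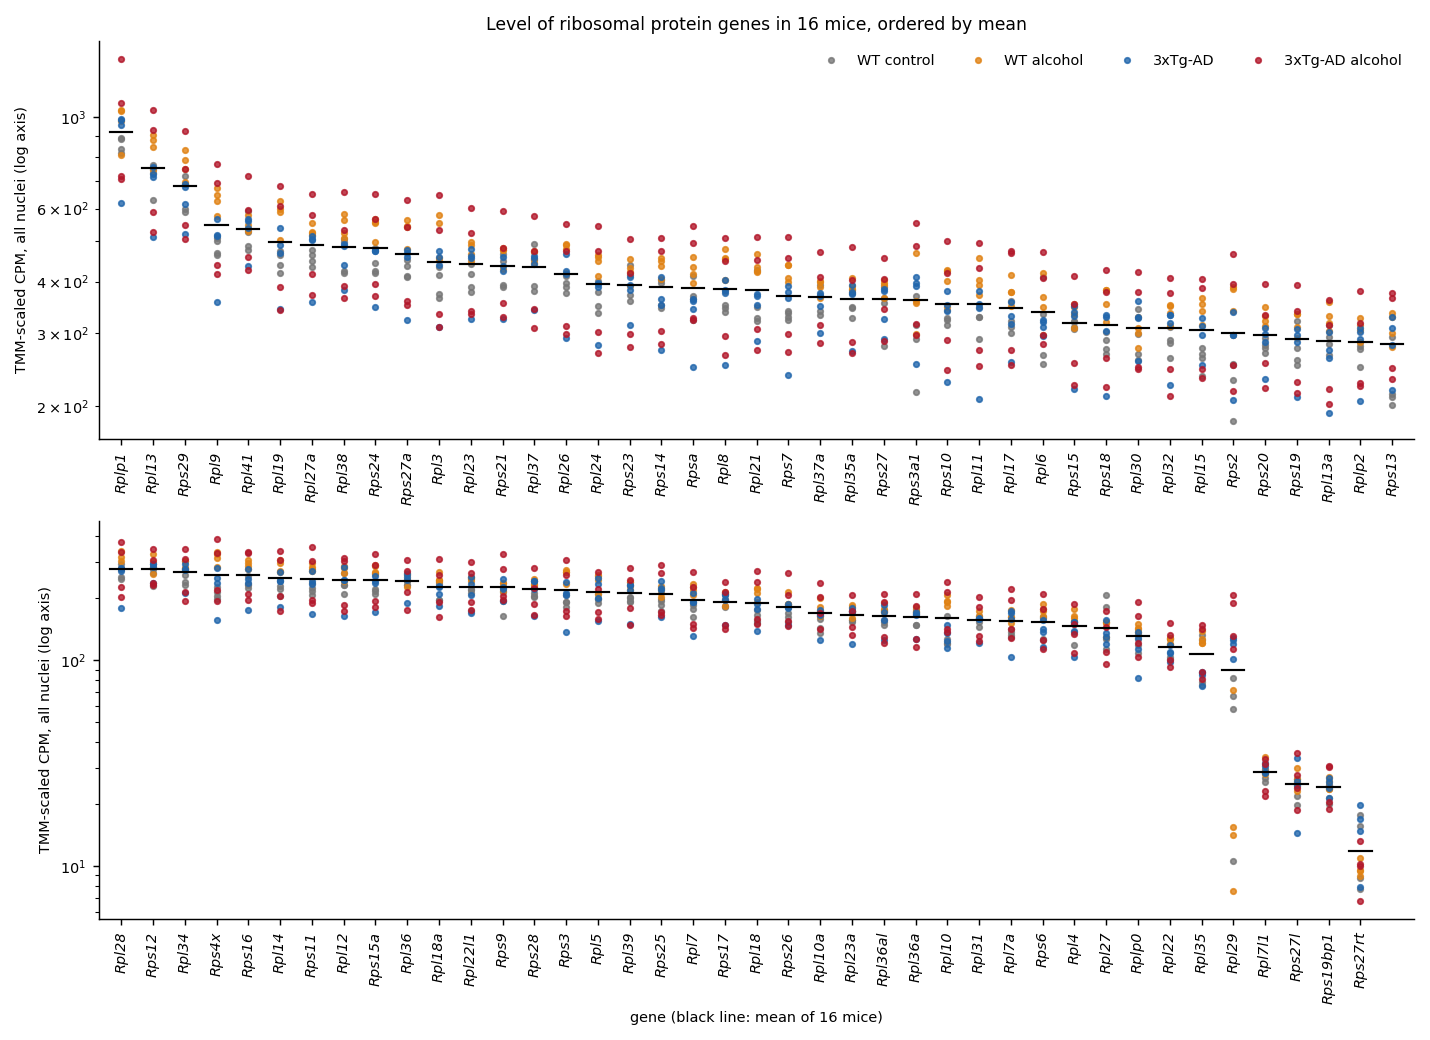
TMM-scaled CPM over all nuclei (vertical log axis) of 81 ribosomal protein genes in 16 mice, 1 point a mouse colored by group, with a black line at the mean of the 16 mice and genes ordered by that mean. Levels fall from 919 CPM for Rplp1 to 11.8 CPM for Rps27rt, and Rpl29 spreads far wider than its neighbors.

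The members moved up and down together from mouse to mouse, and these swings were wide in the 3xTg-AD alcohol group. The median departure of the 83 members from their own mean, on the log2 scale, was 0.26 in mouse 4 and 0.45 in mouse 33 but -0.40 in mouse 31 and -0.29 in mouse 34 of that group. Among 3xTg-AD mice it was -0.44 in mouse 12 and between 0.01 and 0.10 in the other 3. It was above 0 in all 4 WT alcohol mice (0.08 to 0.24) and between -0.16 and 0.02 in WT controls. Mice 12, 31 and 34 also had the lowest CPM of mitochondrially encoded genes (5976, 8079 and 8371 CPM) and mouse 33 the highest (11610 CPM), and the part of RNA from outside the nucleus in this was not tested.

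Once this common shift was taken from each mouse, most members hardly varied. The SD over mice of a member's log2 level was 0.26 at the median before and 0.09 after, and 76 of 83 members were below 0.2 afterwards. Among the steadiest were Rpl27a, at 0.04, and Rpl23, also at 0.04. The 7 members above 0.2 were Rpl29 (1.57), Rps27rt (0.47), Rpl27 (0.27), Rpl35 (0.26), Rps3a1 (0.24), Rps2 (0.24) and Rpl10 (0.21). The biological coefficient of variation from edgeR, which leaves out differences between groups, was 0.165 at the median of members and 0.152 at the median of all genes. It was largest for Rpl29 (0.594), Rps27rt (0.267), Rps3a1 (0.211) and Rps2 (0.202), and smallest for Rpl7l1 (0.124) and Rps12 (0.133) among members with at least 1000 UMIs.

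**Figure D2:**
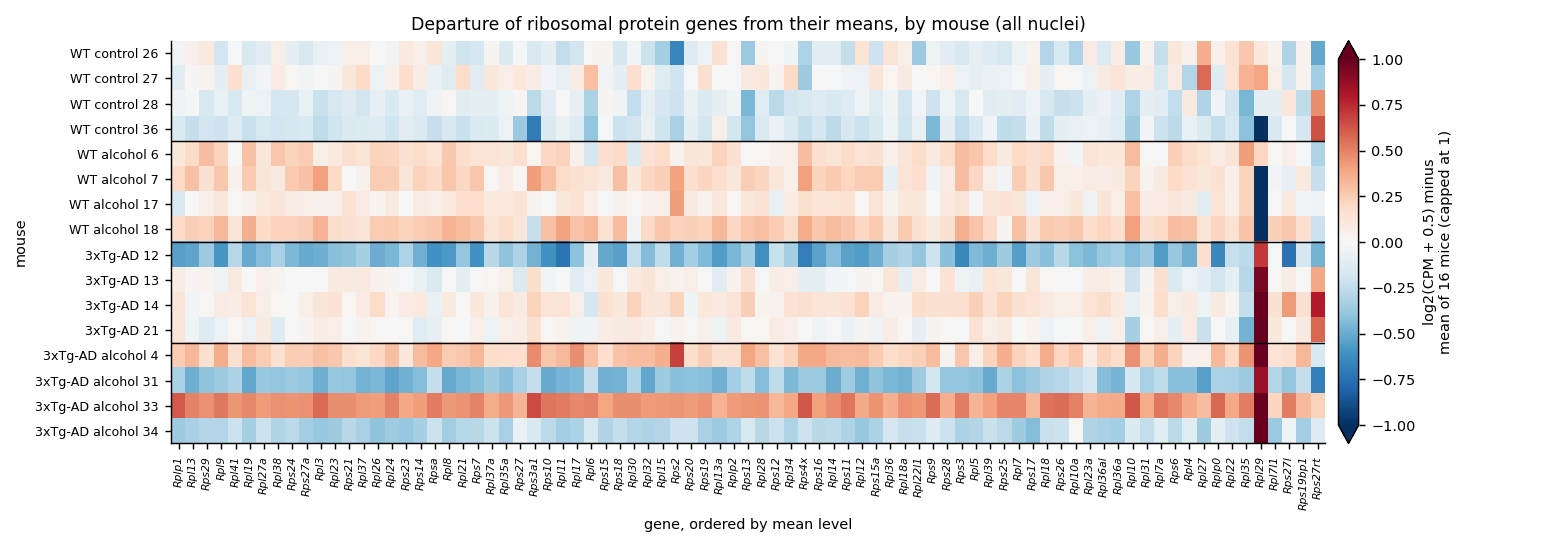
Log2(CPM + 0.5) of 81 members (columns, ordered by mean level) in each mouse (rows, by group) minus the member's mean over 16 mice, all nuclei, with the color scale capped at 1 in either direction. Whole rows share a color, blue in mice 12, 31 and 34 and red in mouse 33, and the column of Rpl29 departs from its rows.

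Ribosomal protein transcripts took a smaller share of UMIs in neurons and a larger one in endothelial nuclei. Classes were compared with the mean of the other 6 in 1 edgeR fit with the mouse as a block, on 5262 genes of which 80 were members. In glutamatergic nuclei 80 of 80 members were lower at an adjusted p of at most 0.05, against 34.2% of all genes tested, with a median log2 fold of -0.74 for members and 0.11 for all genes. In GABAergic nuclei 80 of 80 were lower, against 31.7% of all genes, with a median of -0.71 beside 0.13 for all genes. In endothelial nuclei 78 of 80 were higher, against 12.6% of all genes, with a median of 1.06 beside -0.46 for all genes. The endothelial class rests on 11 to 26 nuclei a mouse in 15 mice and gave no value under a stricter marker rule.

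Glial classes differed less and depended on the scaling and on the marker rule. In astrocytes 66 of 80 members were higher (29.8% of all genes) with a median log2 fold of 0.18, but with DESeq2 size factors 15 were higher and 5 lower. In oligodendrocytes 47 were higher (24.1% of all genes), median 0.18, but 4 higher and 7 lower with those size factors. In microglia 45 were higher (22% of all genes), median 0.22, but 17 higher and 1 lower with them. In oligodendrocyte precursors (OPCs) 30 of 80 were lower (10.3% of all genes), median -0.18, and 27 were lower with those size factors. DESeq2 size factors moved the median log2 fold of all genes to -0.17 in astrocytes, -0.18 in oligodendrocytes, -0.15 in microglia, 0.28 in glutamatergic and 0.32 in GABAergic nuclei. With these size factors 80 members were still lower in glutamatergic and 79 in GABAergic nuclei, and 78 were higher in endothelial nuclei. The stricter marker rule left no endothelial class, so each class was then compared with a different set of others. With it 5 of 81 members were lower in OPCs, with a median log2 fold of -0.19. Higher were 78 of 81 in oligodendrocytes, 79 in astrocytes and 65 in microglia, with medians of 0.50, 0.50 and 0.40. The marker rule and the change of classes compared cannot be told apart in these values. Without the filter on low counts 56 of 84 were lower in OPCs, and with a scaling that left out the members, mitochondrial and ribosomal RNA-like genes 45 of 80 were.

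The median nucleus had 31 to 40 member UMIs in 6 classes and 72 in endothelial nuclei, while the median depth ranged from 790 UMIs in microglia to 2299 UMIs in glutamatergic nuclei. The summed member level thus ranged from 17785 CPM in glutamatergic to 80155 CPM in endothelial nuclei. It was 15640 CPM in glutamatergic nuclei under the stricter marker rule and 39684 CPM in the nuclei of no class. Mitochondrially encoded genes ranged from 6462 CPM in GABAergic to 17064 CPM in endothelial nuclei. How far RNA from outside the nucleus adds to these class differences was not tested.

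Against this common pattern, single members stood out in single classes. In neurons Rpl22l1, a copy of Rpl22 that binds RNA as its parent does, was the least lowered, by -0.34 ± 0.04 (log2 fold ± SE) in glutamatergic and -0.29 ± 0.05 in GABAergic nuclei, although in GABAergic nuclei it was not called with DESeq2 size factors (-0.10). Rpl22l1 made up 1.03% ± 0.0645 of member UMIs in glutamatergic and 1.05% ± 0.138 in GABAergic nuclei (SD, n = 16), and 0.450% ± 0.176 in endothelial nuclei (n = 15). Its endothelial log2 fold of 0.04 ± 0.14 was the smallest of the 80 and was not called. Rpl6 (-0.46 ± 0.04) came next in glutamatergic and Rpl36al (-0.36 ± 0.06) in GABAergic nuclei. The most lowered were Rpl18 in glutamatergic nuclei (-0.99 ± 0.04) and Rplp0 in GABAergic nuclei (-0.95 ± 0.07).

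In astrocytes Rpsa and Rplp0 led. Rpsa, which also serves as a laminin receptor outside the ribosome, stood at 791 ± 150 CPM in astrocytes against 352 ± 49.0 CPM in glutamatergic and 343 ± 52.3 CPM in GABAergic nuclei (SD over 16 mice, CPM scaled over all class sums). Its log2 fold was 0.66 ± 0.04 (SE), 0.48 above the median of members there. Rplp0 had a log2 fold of 0.61 ± 0.06, with 281 ± 47.5 CPM in astrocytes against 121 ± 18.4 CPM in glutamatergic nuclei. Both were called higher under all 20 alternatives run, with folds from 0.46 to 0.88. Rps27l was lowest in astrocytes, at -0.16 ± 0.12, and was not called.

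Other glial classes had leaders of their own. Oligodendrocytes had the largest folds for Rps26 (0.47 ± 0.07), which contacts the mRNA at its exit site, and Rps25 (0.36 ± 0.07), which is used by viral internal ribosome entry sites, and microglia for Rps9 (0.57 ± 0.07) and Rpl10a (0.56 ± 0.08). These 4 were called higher under each of the 20 alternatives. Rps9 had 540 ± 134 CPM in microglia against 381 ± 88.9 CPM in oligodendrocytes. The lowest member in oligodendrocytes was Rpl22 (-0.08 ± 0.09), which was not called. In OPCs no member was called higher, Rpl13 (0.10 ± 0.06) and Rpl41 (0.07 ± 0.06) had the largest values, and Rps3, which forms part of the mRNA entry channel, had the lowest (-0.50 ± 0.11). Rps3 was not called in OPCs under the stricter marker rule (-0.10).

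In endothelial nuclei Rpl7 had the largest fold. Rpl7 stood at 950 ± 347 CPM there against 189 ± 28.6 CPM in glutamatergic nuclei, a log2 fold of 1.78 ± 0.10 over the other classes. Its share of member UMIs was larger there too, at 1.26% against 0.744% in glutamatergic nuclei. Rpl14 had the most even share over the 7 classes, between 0.943% in endothelial nuclei and 1.03% in oligodendrocytes.

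**Figure D3:**
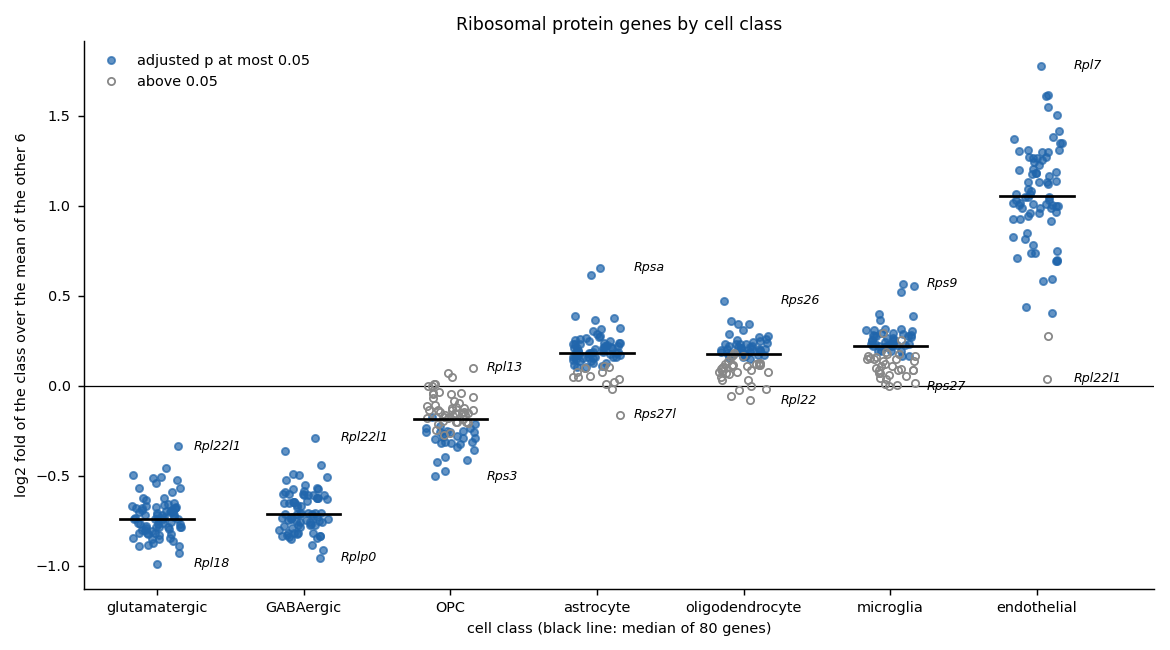
Log2 fold of 78 members in a cell class over the mean of the other 6 classes, 1 point a gene, filled where the adjusted p was at most 0.05, with a black line at the median of all 80 members tested and the lowest and highest point named. All points lie below 0 in both neuron classes and above 0 in endothelial nuclei, where the median is 1.06.

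Few members differed between the 4 groups of mice. Each comparison was fitted on the whole table with 1 mean per group, and genes were called at a Benjamini-Hochberg adjusted p of at most 0.05. In all nuclei no member of 83 was called by edgeR in 3xTg-AD alcohol versus WT control mice (4.06% of all genes called), 3xTg-AD versus WT control (0.435%), WT alcohol versus WT control (0.0179%), 3xTg-AD alcohol versus 3xTg-AD (0.483%) or 3xTg-AD alcohol versus WT alcohol (0.942%). At an unadjusted p below 0.05 there were 10, 0, 8, 4 and 1 members in these 5 comparisons. DESeq2 called 1 member, Rpl29, in the last and 0 in the other 4. Here and below, shares of all genes are not given for unadjusted p or for DESeq2. Those counts are therefore not compared with all genes. The comparisons share groups and are not independent of each other.

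Over the 7 cell classes, 559 pairs of a member and a class were tested. Of these, 3 were called in 3xTg-AD alcohol versus WT control (1.82% of all gene and class pairs), 4 in 3xTg-AD alcohol versus WT alcohol (0.593%), and 1 in 3xTg-AD alcohol versus 3xTg-AD (0.166%). None was called by edgeR in 3xTg-AD versus WT control (0.266%) or WT alcohol versus WT control (0.0488%), with 25 and 68 pairs at an unadjusted p below 0.05, and with 0 and 4 called by DESeq2. Rpl29 made up all 7 pairs that edgeR called in the comparisons with WT mice, and the 1 other pair was Rpl22 in endothelial nuclei. All called pairs were higher in 3xTg-AD alcohol mice.

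The 83 values leaned toward the alcohol group within WT without passing the test, while the lean within 3xTg-AD was not stable to single mice. In 3xTg-AD alcohol mice the median departures were 0.26 and 0.45 in mice 4 and 33 but -0.40 and -0.29 in mice 31 and 34. In all nuclei the log2 difference was above 0 for 80 members in WT alcohol versus WT control, with a median of 0.23 against -0.01 for all genes, and for 77 in 3xTg-AD alcohol versus 3xTg-AD, with a median of 0.11 against 0.01. Without 3xTg-AD mouse 12, which had high ribosomal RNA-like transcripts, the latter became 47 with a median of 0.02. In 3xTg-AD versus WT control it was above 0 for 47, with a median of 0.01, and for 74 without mouse 12, with a median of 0.13. Because the members share their swings between mice, these counts are not independent votes. Of the interaction of genotype and alcohol, no member was called in all nuclei (0% of 16767 genes) or in the 7 classes (0% of 40950 pairs) by edgeR or DESeq2. At an unadjusted p below 0.05 it had 0 members in all nuclei and 12 pairs in the classes.

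Rpl29, a basic protein of the large subunit that also binds heparin, was the member called for genotype. In all nuclei it stood at 66.8, 81.9, 58.0 and 10.6 CPM in WT control mice 26, 27, 28 and 36, and at 71.8, 7.59, 14.1 and 15.5 CPM in WT alcohol mice 6, 7, 17 and 18. In 3xTg-AD mice 12, 13, 14 and 21 it was 102, 120, 128 and 125 CPM, and in 3xTg-AD alcohol mice 4, 31, 33 and 34 it was 189, 113, 208 and 131 CPM. All 8 mice of the 3xTg-AD strain were above all 8 WT mice. Within WT the mice fell apart into 4 near 58.0 to 81.9 CPM and 4 at or below 15.5 CPM, with 1 of the latter among the controls and 3 among the alcohol mice. The group means were 54.3 ± 30.8, 27.2 ± 29.9, 119 ± 11.8 and 160.0 ± 45.5 CPM (SD, n = 4).

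After these levels were seen, a contrast was added that sets both 3xTg-AD groups against both WT groups. Rpl29 was the only member it called in all nuclei, with a log2 fold of 1.84 ± 0.44 (SE; edgeR adjusted p = 0.0376), and 3.28% of all genes were called. Since the contrast was chosen for Rpl29, this p is not independent evidence. The call was lost when any mouse other than 6, 27 or 36 was left out, with adjusted p up to 0.0741 (without WT alcohol mouse 18) and log2 folds from 1.69 to 1.91. It was also lost without the filter on low counts (1.84, adjusted p = 0.0594), without the 3 mice of high ribosomal RNA-like transcripts (2.21, adjusted p = 0.0905) and with the mitochondrial share as a covariate (1.94, adjusted p = 0.0517). In the comparisons set out earlier, Rpl29 in all nuclei had log2 differences of 1.57 (3xTg-AD alcohol versus WT control, adjusted p = 0.172) and 2.55 (3xTg-AD alcohol versus WT alcohol, adjusted p = 0.0868). The planned comparison of the genotypes in air, 3xTg-AD versus WT control, did not call Rpl29 with the main settings. This held in all nuclei and in each of the 7 classes.

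In the 2 neuron classes, in astrocytes and in microglia the lowest WT mice were the same 4. In oligodendrocytes and endothelial nuclei the order of mice differed. In glutamatergic nuclei Rpl29 had 49.2, 60.3, 44.4 and 8.85 CPM in WT controls, 50.5, 6.37, 11.5 and 12.2 CPM in WT alcohol mice, 84.9 to 104 CPM in 3xTg-AD mice and 90.4 to 152 CPM in 3xTg-AD alcohol mice. WT mice 36, 7, 17 and 18 were again lowest, and the genotypes did not overlap, as was also the case in GABAergic nuclei. In astrocytes, over all UMIs of these nuclei, the same mice had 20.05, 4.33, 20.2 and 20.9 CPM, against 78.5 to 118 CPM in the other WT mice. The genotypes overlapped on this scale, since 3xTg-AD mouse 12 had 111 CPM and WT control mouse 27 had 118 CPM. In oligodendrocytes it had 124, 147, 0 and 38.7 CPM in WT controls, 139, 0, 37.1 and 21.3 CPM in WT alcohol mice, 138 to 191 CPM in 3xTg-AD mice, and 250.3 to 320.1 CPM in 3xTg-AD alcohol mice. In oligodendrocytes WT alcohol mouse 7 and WT control mouse 28, both at 0, had 6 and 2 UMIs of Rpl22. Mouse 28 lay below mice 36, 17 and 18 there, and the genotypes overlapped at 138 to 147 CPM. In microglia it had 0 UMIs in WT mice 36 and 7 and 42 UMIs in 3xTg-AD alcohol mouse 33, and the genotypes overlapped, since 3xTg-AD mouse 13 had 2 UMIs (82.7 CPM). WT alcohol mice 17 and 18 came next among WT mice in CPM there, from 1 and 2 UMIs, while mice 27 and 28 also had 2 UMIs each. In endothelial nuclei it had 0 UMIs in WT mice 28, 36 and 7, at most 738 CPM in the other WT mice and at least 793 CPM in 3xTg-AD mice.

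With the added contrast of genotypes, 5 of 559 member and class pairs were called (1.7% of all pairs), and all 5 were Rpl29. The log2 folds were 1.90 (SE 0.41, adjusted p = 0.0246) in glutamatergic, 1.85 (SE 0.36, adjusted p = 0.0312) in GABAergic, 1.73 (SE 0.26, adjusted p = 1.15e-07) in oligodendrocyte, 2.06 (SE 0.39, adjusted p = 0.00066) in microglial and 2.23 (SE 0.46, adjusted p = 0.00178) in endothelial nuclei. In microglia and endothelial nuclei Rpl29 passed the filter on low counts only through the 3xTg-AD strain, where it is high. The filter asked for 158 CPM over all UMIs in 4 mice in microglia, which 3xTg-AD mice 12 and 14 and the 4 3xTg-AD alcohol mice reached, and for 476 CPM in 3 mice in endothelial nuclei, which 3xTg-AD alcohol mice 4, 33 and 34 reached. No WT mouse did in either, so these calls are given as values and not as support for the difference. Without that filter they were 2.17 (adjusted p = 4.25e-07) in microglia and 2.20 (adjusted p = 9.25e-05) in endothelial nuclei. In oligodendrocytes the filter asked for 77.4 CPM in 4 mice. WT mice 6, 26 and 27 and every mouse of the 3xTg-AD strain reached it. Rpl29 would thus not have passed there on WT mice alone, and the oligodendrocyte calls are likewise given as values and not as support. In astrocytes the fold was 1.73 and was not called (adjusted p = 0.0937), but it was under the stricter marker rule (1.83, adjusted p = 0.0491). In OPCs Rpl29 did not pass the filter. Without the filter edgeR called it there (1.72, adjusted p = 0.00676), from 105 UMIs in all. Among glutamatergic subclasses it was called in upper-layer intratelencephalic (IT) nuclei (1.90, with 1.8% of all genes called) and in layer 6 corticothalamic (CT) nuclei (2.04, 0.878% called). The layer 6 CT and oligodendrocyte calls were kept under each alternative run. The microglial one was kept under all but DESeq2 (2.01, adjusted p = 0.159), and under the stricter marker rule Rpl29 did not pass the filter in microglia. Without 3xTg-AD alcohol mice 4, 33 or 34 Rpl29 did not pass the filter in endothelial nuclei and was not tested there, and under the alternatives that tested it the call was kept. The glutamatergic call was lost without WT alcohol mouse 18 (1.81, adjusted p = 0.0503), the GABAergic call without 3xTg-AD mice 12, 13, 14 or 21, WT alcohol mice 17 or 18, or 3xTg-AD alcohol mice 4, 33 or 34 (1.73 to 1.87), and the upper-layer IT call without 11 of the 16 mice, left out singly (those other than 6, 12, 26, 27 and 36; 1.75 to 1.96). Without the 3 mice of high ribosomal RNA-like transcripts, these 3 calls were lost too, at 2.23 (adjusted p = 0.0679), 2.13 (adjusted p = 0.0779) and 2.37 (adjusted p = 0.0519), and with the mitochondrial share as a covariate the GABAergic one (1.79, adjusted p = 0.0515).

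The calls of the planned contrasts lay in the same classes. In oligodendrocytes the log2 difference of Rpl29 was 1.70 (adjusted p = 4.04e-05) in 3xTg-AD alcohol versus WT control and 2.64 (adjusted p = 5.76e-09) versus WT alcohol. In microglia these were 2.15 and 2.55, and in endothelial nuclei 2.35 and 2.75. The limit from the filter given above applies in all of these classes, oligodendrocytes included. Versus WT alcohol Rpl29 was also called in GABAergic nuclei (2.66) and in layer 6 CT nuclei (2.55, with 0.444% of all genes called). In glutamatergic nuclei this difference was called by DESeq2 (2.61, adjusted p = 0.00274) and with the ribosomal RNA-like share as a covariate (2.76, adjusted p = 0.0395), but not with the main settings. Of the main calls, the GABAergic one, which DESeq2 also made (2.71, adjusted p = 0.004), was lost without any mouse other than WT alcohol mouse 6 and WT control mice 28 and 36, left out singly (2.42 to 2.82), and the layer 6 CT call was lost without any 3xTg-AD alcohol mouse, any WT alcohol mouse other than 6, or 3xTg-AD mice 13, 14 or 21 (2.11 to 2.65). Both were lost with the mitochondrial share as a covariate (2.60 and 2.54), and the GABAergic one without the 3 mice of high ribosomal RNA-like transcripts (2.66, adjusted p = 0.0643). The 2 oligodendrocyte differences and the contrast of genotypes there were called in all 24 alternatives run, with folds of 1.24 to 3.02, 2.36 to 3.25 and 1.49 to 2.44. These calls are not separate support, since edgeR estimated the spread in part from other genes. No member had a coefficient of variation above 0.169 there, against 0.562 for the most variable member in glutamatergic nuclei. DESeq2 did not call the 3 microglial differences, and the endothelial one versus WT control was not called without WT control mouse 36 (1.82, adjusted p = 0.0691). Of the microglial differences, that versus WT control was also lost without WT control mice 26, 27 or 36 or 3xTg-AD alcohol mouse 33, with folds of 1.49 to 2.66, and with the mitochondrial share as a covariate (2.15, adjusted p = 0.0711).

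**Figure D4:**
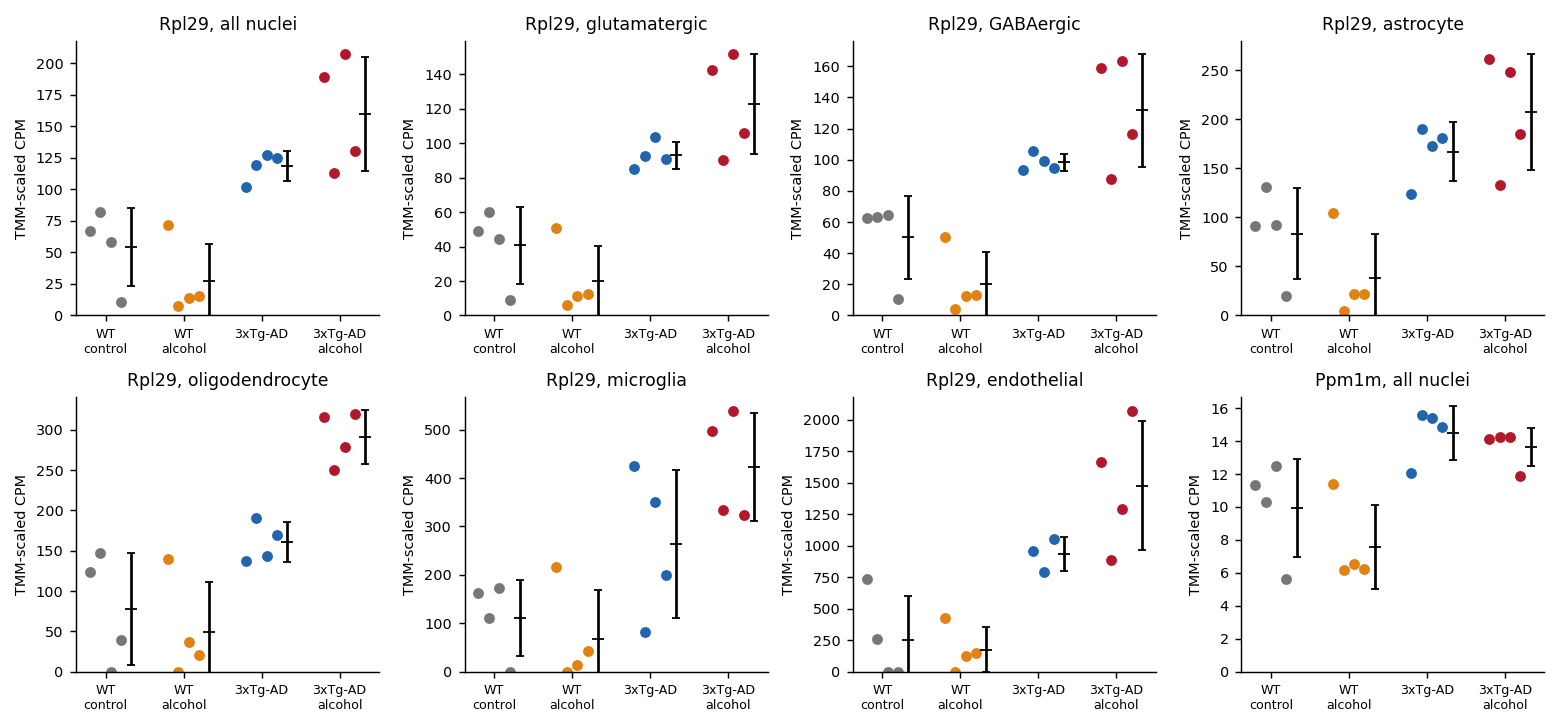
TMM-scaled CPM (linear axis from 0) of Rpl29 by group in all nuclei and 6 cell classes, and of its neighbor Ppm1m in all nuclei, 1 point a mouse in the order of mouse numbers, with the mean and SD in black. The 8 mice of the 3xTg-AD strain lie above the 8 WT mice for Rpl29 in all nuclei, and 1 WT control and 3 WT alcohol mice lie lowest for both genes.

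Rpl29 (ENSMUSG00000048758) lies at chr9:106429454-106431568 on the plus strand of GRCm38. Of its windows of 50 bases, 35.1% also occur in other annotated genes, and 82 such genes share at least 1 window. Genes within 1 Mb were looked at after the levels of Rpl29 were known, so they are a description. Of 37 genes there that were tested in all nuclei, 10 were called in the added contrast of genotypes (27%, against 3.28% of all genes), 3 higher and 7 lower in the 3xTg-AD strain. Ppm1m, a protein phosphatase gene, had 11.4, 10.3, 12.5 and 5.65 CPM in WT controls, 11.4, 6.19, 6.51 and 6.25 CPM in WT alcohol mice, and 11.9 to 15.6 CPM in the 8 mice of the 3xTg-AD strain. Its 4 lowest mice, WT mice 36, 7, 17 and 18, were the same as for Rpl29. Alas1, the rate-limiting enzyme of heme synthesis, was lower in the 3xTg-AD strain, at 32.4 to 37.6 CPM in all 8 mice against 42.5 to 60.7 CPM in all 8 WT mice, a log2 fold of -0.56 (adjusted p = 8.53e-05). Abhd14a had a log2 fold of 0.63 (adjusted p = 0.000842). What sets these levels, and whether it is shared with Rpl29, was not tested.

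Rpl10, which joins the large subunit late in its maturation, was the member called for alcohol. It lies at chrX:74270812-74273135 on the plus strand of GRCm38. In all nuclei it had 119, 164, 126 and 121 CPM in WT control mice 26, 27, 28 and 36 and 194, 182, 192 and 208 CPM in WT alcohol mice 6, 7, 17 and 18. In 3xTg-AD mice 12, 13, 14 and 21 it had 115, 135, 148 and 124 CPM, and in 3xTg-AD alcohol mice 4, 31, 33 and 34 it had 213, 138, 239 and 142 CPM. WT groups did not overlap, whereas mice 31 and 34 lay within the range of the unexposed 3xTg-AD mice. Those are the 3xTg-AD alcohol mice in which the members as a whole were low.

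The log2 differences of Rpl10 were 0.55 (adjusted p = 0.255) in WT alcohol versus WT control, 0.49 (adjusted p = 0.178) in 3xTg-AD alcohol versus 3xTg-AD, and 0.46 (adjusted p = 0.106) in 3xTg-AD alcohol versus WT control. A contrast of both alcohol groups against both air groups was added after these levels were seen, so its p is not independent evidence. It called Rpl10 alone among 83 members in all nuclei, with a log2 fold of 0.52 ± 0.11 (SE; adjusted p = 0.0223), and 3.3% of all genes were called. The log2 value was above 0 for 79 of 83 members (median 0.18, against 0.01 for all genes), and 16 had an unadjusted p below 0.05. DESeq2 called 2 members. The call of Rpl10 was lost without WT alcohol mouse 18 (0.50, adjusted p = 0.0619) and without 3xTg-AD alcohol mouse 33 (0.44, adjusted p = 0.051). Of the windows of 50 bases in Rpl10, 73.7% occur in other annotated genes, above all its pseudogene Rpl10-ps3.

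In the cell classes this contrast called 3 of 559 pairs (1.32% of all pairs), all of them Rpl10. It was higher in glutamatergic nuclei by 0.53 (adjusted p = 0.0109), with 83.5 to 115 CPM in WT controls and 132 to 149.5 CPM in WT alcohol mice. Unexposed 3xTg-AD mice had 81.3 to 98.3 CPM there and 3xTg-AD alcohol mice 103 to 158 CPM, so that within each genotype the exposed and unexposed mice did not overlap. In GABAergic nuclei the fold was 0.54 (adjusted p = 0.027) and in astrocytes 0.47 (adjusted p = 0.0467). In upper-layer IT nuclei it was 0.50 (adjusted p = 0.0125), where 1.32% of all genes were called. The glutamatergic and upper-layer IT calls were kept under each alternative run, while the GABAergic one was lost without 3xTg-AD alcohol mice 4 or 33, 3xTg-AD mice 13 or 21, WT alcohol mouse 18 or WT control mouse 26 (0.48 to 0.53) and that of astrocytes without any mouse other than 17, 27, 31 and 34 (0.42 to 0.49). The stricter marker rule ended both (0.36 and 0.48), and in astrocytes so did leaving out the 3 mice of high ribosomal RNA-like transcripts (0.48) or their share as a covariate (0.46). DESeq2 called further members in glutamatergic nuclei. In WT alcohol versus WT control these were Rpl10 (0.56, adjusted p = 0.0208), Rps2 (0.69, adjusted p = 0.0382), Rps4x (0.59, adjusted p = 0.0467) and Rpl15 (0.45, adjusted p = 0.0207), and in 3xTg-AD alcohol versus WT control Rps2 (0.62), Rps13 (0.47), Rpl10 (0.47), Rpl15 (0.41) and Rps9 (0.40), with adjusted p of 0.0185 to 0.0359. It also called Rpl10 in 3xTg-AD alcohol versus 3xTg-AD (0.49, adjusted p = 0.0403), and in alcohol against air Rps2 (0.46), Rps4x (0.42), Rpl15 (0.28) and Rpsa (0.28, adjusted p = 0.0418). None of these differences was called in glutamatergic nuclei by edgeR with its main settings. With the stricter marker rule edgeR called Rpl15 (0.45, adjusted p = 0.0397) and Rps9 (0.44, adjusted p = 0.0472) in 3xTg-AD alcohol versus WT control, with the mitochondrial share as a covariate Rpl15 there (0.38, adjusted p = 0.0449), and with the ribosomal RNA-like share as a covariate Rpl10 in 3xTg-AD alcohol versus 3xTg-AD (0.55, adjusted p = 0.0385).

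Rps13, which lies at the contact between the subunits, was called in 1 glutamatergic subclass. In upper-layer IT nuclei it had 145, 169, 147 and 129 CPM in WT controls and 246, 173, 231 and 203 CPM in 3xTg-AD alcohol mice, with no overlap. Its log2 difference was 0.54 ± 0.14 (SE; edgeR adjusted p = 0.0338), and 2.1% of all genes were called there. In WT alcohol mice it had 180.5 to 238 CPM and in 3xTg-AD mice 147 to 211 CPM. The call was lost without WT control mice 26, 28 or 36 or without 3xTg-AD alcohol mice 4, 33 or 34 (0.47 to 0.56, adjusted p of 0.0575 to 0.111), and with the share of ribosomal RNA-like transcripts as a covariate (0.44, adjusted p = 0.242). DESeq2 also called Rps13 there in WT alcohol versus WT control (0.52, adjusted p = 0.016) and in alcohol against air (0.34, adjusted p = 0.0322). EdgeR called the latter difference without the filter on low counts (0.35, adjusted p = 0.0478) and without the 3 mice of high ribosomal RNA-like transcripts (0.34, adjusted p = 0.047), but not with its main settings.

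Rpl22 was called in endothelial nuclei between the 3xTg-AD groups. It had 0, 793 and 384 CPM in 3xTg-AD mice 13, 14 and 21, from 0, 6 and 4 UMIs, and 1664, 1657, 1289 and 1957 CPM in 3xTg-AD alcohol mice 4, 31, 33 and 34, from 17, 15, 11 and 17 UMIs. Over all UMIs of these nuclei, in place of those of the genes tested, the latter 4 values are 758, 531, 590.3 and 809 CPM. Mouse 12, with 9 endothelial nuclei, was not in that fit. It had 18 UMIs of Rpl22, or 761 CPM over all UMIs, which lay within the range of the 3xTg-AD alcohol mice. The log2 difference was 1.97 ± 0.48 (SE; edgeR adjusted p = 0.0241). Only 394 genes were tested in this class, 77 of them members, so the adjustment was over few genes. Rpl22 passed the filter there with the 4 3xTg-AD alcohol mice and 2 WT mice, with 3 mice needed, and so not without the group where it is high. The difference was not called by DESeq2 (2.10, adjusted p = 1), without the filter on low counts, or without 3xTg-AD mouse 13 (1.55, adjusted p = 0.304), 3xTg-AD mouse 21 (1.90, adjusted p = 0.0951) or 3xTg-AD alcohol mouse 34 (1.88, adjusted p = 0.111).

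The other members with a wide spread over mice did not pass the test, and each had a pattern of its own. Rpl35, a protein of the tunnel exit, had 125, 132, 75.3 and 78.0 CPM in WT controls, 121 to 139 CPM in WT alcohol mice, 74.7 to 87.6 CPM in 3xTg-AD mice, and 142, 81.0, 148 and 87.4 CPM in 3xTg-AD alcohol mice 4, 31, 33 and 34. No mouse lay between 87.6 and 121 CPM. For alcohol against air, its log2 value was 0.38 (adjusted p = 0.132), and it was called with the 3 mice of high ribosomal RNA-like transcripts left out (0.60, adjusted p = 0.0183) and with that share as a covariate (0.68, adjusted p = 0.0158). Leaving those mice out kept only mice 28 and 36 as WT controls, the lowest of that group (75.3 and 78.0 CPM). In upper-layer IT nuclei DESeq2 called Rpl35 for alcohol against air (0.50, adjusted p = 0.0468), and so did edgeR without the filter (0.51, adjusted p = 0.0348). In astrocytes edgeR did so without the filter (0.48, adjusted p = 0.028) or with the stricter marker rule (0.58, adjusted p = 0.022). With the ribosomal RNA-like covariate Rpl35 was also called in 3xTg-AD alcohol versus 3xTg-AD in all nuclei (0.69, adjusted p = 0.0353).

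Rps27rt had 7.70, 8.74, 15.6 and 17.7 CPM in WT controls, 8.92 to 10.9 CPM in WT alcohol mice, 7.91 CPM in 3xTg-AD mouse 12, 14.8 to 19.8 CPM in the other 3xTg-AD mice, and 6.77 to 13.2 CPM in 3xTg-AD alcohol mice. Mice 26, 27 and 12, which stood apart in ribosomal RNA-like transcripts, were the lowest of their groups. The log2 value for alcohol against air was -0.47 (adjusted p = 0.182), and -0.78 (adjusted p = 0.00578) without these 3 mice. Only mice 28 and 36 were then left as WT controls, the highest of that group (15.6 and 17.7 CPM). For Rps27, whose sequence Rps27rt largely shares, the log2 value with all mice was 0.14 (adjusted p = 0.434).

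Rps2, which lines the mRNA entry channel, had 185 to 252 CPM in WT controls and 297 to 388 CPM in WT alcohol mice, with no overlap, and a log2 difference of 0.62 that was not called (adjusted p = 0.261). In 3xTg-AD mice it had 207 to 338 CPM and in 3xTg-AD alcohol mice 467, 218, 394 and 252 CPM, which overlapped. In layer 6 CT nuclei DESeq2 called Rps2 in WT alcohol versus WT control (0.77, adjusted p = 0.0388). Without the filter on low counts edgeR called it there too (0.79, adjusted p = 0.0012). So it did in 3xTg-AD alcohol versus WT control (0.66, adjusted p = 0.0049) and in alcohol against air (0.52, adjusted p = 0.0012). With its main settings edgeR called none of these. In all nuclei Rps3a1 ranged from 216 CPM in WT control mouse 36 to 553 CPM in 3xTg-AD alcohol mouse 33. Rps4x, X-linked like Rpl10, Rpl36a and Rpl39, had 197 to 228 CPM in WT controls and 282 to 336 CPM in WT alcohol mice, with no overlap and no call (0.58, adjusted p = 0.261). In alcohol against air DESeq2 called Rps4x higher in all nuclei (0.43, adjusted p = 0.0334), in glutamatergic (0.42), GABAergic (0.44) and astrocyte nuclei (0.46), while edgeR called it with its main settings in none of these. Without the filter on low counts edgeR called it in GABAergic nuclei (0.45, adjusted p = 0.0133), and in astrocytes it did so without that filter, with the stricter marker rule or with the mitochondrial share as a covariate (0.44 to 0.55, adjusted p of 0.00921 to 0.019). Rpl27 was highest in WT control mice 27 (208 CPM) and 26 (180.2 CPM). Beyond the common shift of the members, its log2 level was raised by 0.60 in 3xTg-AD mouse 12, 0.55 in mouse 27 and 0.42 in mouse 26, the mice that stood apart in ribosomal RNA-like transcripts, and by at most 0.02 in any other mouse. The part of these libraries in the spread of Rpl27 was not tested.

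**Figure D5:**
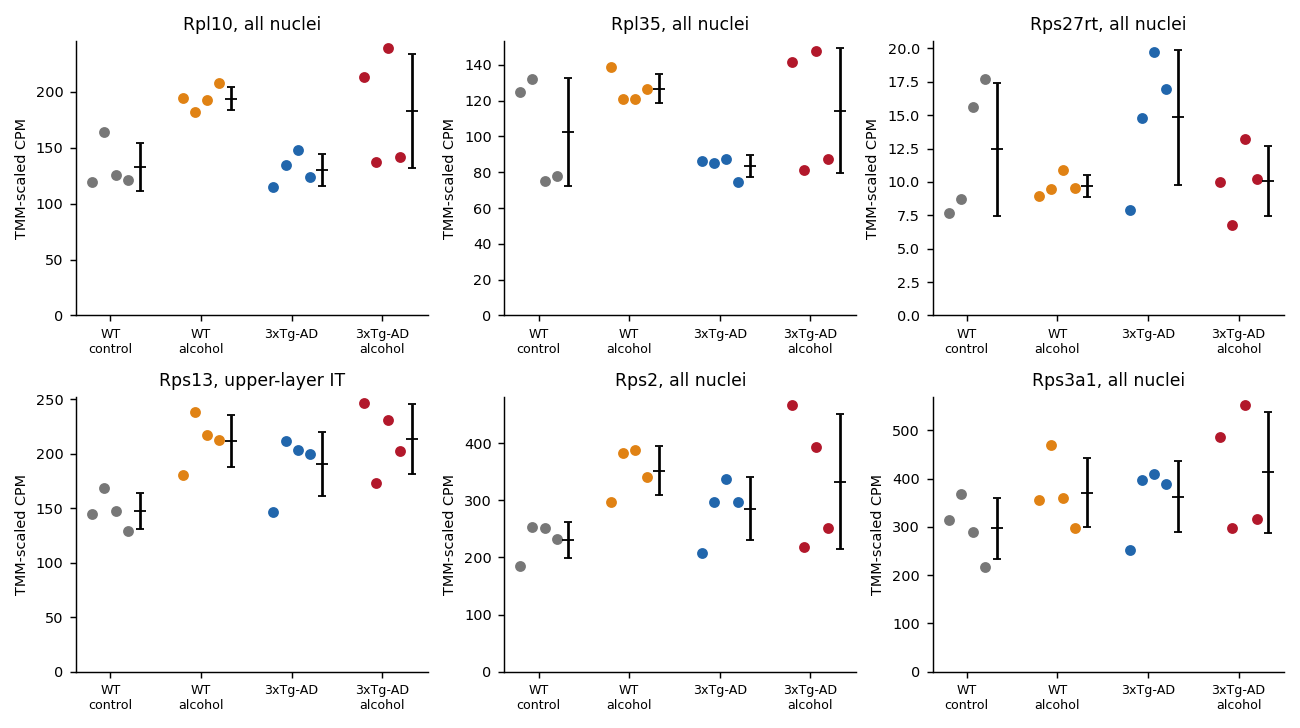
TMM-scaled CPM (linear axis from 0) by group of Rpl10, Rpl35, Rps27rt, Rps2 and Rps3a1 in all nuclei and of Rps13 in upper-layer IT nuclei, 1 point a mouse, with the mean and SD in black. WT alcohol mice lie above WT controls for Rpl10 and Rps2, and 3xTg-AD alcohol mice 4 and 33 lie above mice 31 and 34 for Rpl10, Rpl35 and Rps2.

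Rpl23a, Rpl13a, Rpl35a, Rpl36a and Rpl37 were looked at because the text of the study names them for a layer 6 neuron type. In all nuclei their log2 differences in 3xTg-AD alcohol versus WT control mice were 0.04, -0.08, 0.05, -0.02 and -0.01, with SEs of 0.14 to 0.16 and edgeR adjusted p of at least 0.842. Rpl37 had 379 to 492 CPM in WT controls and 473, 309.6, 577 and 343 CPM in 3xTg-AD alcohol mice, so that the exposed mice lay on both sides of the controls. None of these genes was called in any class, subclass or alternative run. Layer 6 intratelencephalic nuclei were not separated or tested here, so these values do not bear on that type.

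Other genes of translation were followed as a list of 43, with initiation and elongation factors, Fau (a fusion of a ribosomal protein with a ubiquitin-like protein), and nucleolar proteins. In all nuclei 0 of 43 were called by edgeR in each of the 5 comparisons of groups and in both added contrasts, with 0 (3xTg-AD alcohol versus 3xTg-AD) to 14 (alcohol against air) at an unadjusted p below 0.05. DESeq2 called 0 to 2 of them in these 7 contrasts in all nuclei. In glutamatergic nuclei, where edgeR called 0, it called 7 in alcohol against air, 3 in WT alcohol versus WT control and 2 in 3xTg-AD alcohol versus WT control. The share of all genes that DESeq2 called in these contrasts is not given, so the counts do not set the list apart. Eif3b, a scaffold subunit of initiation factor 3, was called lower in upper-layer IT nuclei, in 3xTg-AD alcohol versus 3xTg-AD mice (-0.70, adjusted p = 0.0461) and in alcohol against air (-0.43, adjusted p = 0.0368).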

How the data were processed

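Nuclei of the prefrontal cortex were profiled with a droplet 3′ kit. Per the labels and the study's methods, the authors aligned reads to mm10 with Cell Ranger 6.1.1 and deposited UMI counts per gene and nucleus in 1 filtered matrix per mouse. The counts used here came from 1 joint table of all 16 mice. From these counts, classes were built from marker genes and counts were summed per mouse and class (at least 10 nuclei per mouse and 3 mice per group). Where mice were left out, fewer than 3 mice per group were allowed. No nuclei were removed, no doublet caller was run, and no correction for free RNA was made. Groups were compared with the edgeR 4.0.16 quasi-likelihood test (TMM scaling, filterByExpr, robust dispersion, 1 mean per group) in R 4.3.3, with Benjamini-Hochberg adjustment over all genes of a set. Classes were compared with the mouse as a block. DESeq2 1.42.0 and the settings of the closing section were alternatives. Fits were tested on simulated data. Members were named by rule: the 6 highest and 3 lowest in mean CPM, those called, the 2 largest and the smallest class folds, the 4 largest and 2 smallest coefficients of variation (at least 1000 UMIs), variant copies with their parents, and 5 genes named by the study. Other members were named after their values were seen, and some items are not reported here. The members and lists were chosen with earlier results of these data known, and the contrasts averaged over groups and the genes near Rpl29 after values were seen. P-values measure the spread between mice, which edgeR estimates in part from other genes. In oligodendrocytes the coefficients of variation of members were thus all between 0.147 and 0.169. Small p-values in such rare classes do not measure the spread of 1 gene alone. Promoters came from RefSeq (GRCm38.p6), and gene positions from GENCODE release M21. Totals per mouse were 9622031 to 17544364 UMIs, and counts of single genes in rare classes were few.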

Additional observations from a re-analysis of the deposited data

Results flagged for a closer look

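Levels of 35 members over all nuclei were searched, in 140 groups of 4 mice, for a mouse far from the other 3 of its group. Chance flags about 1 group in 20, and 12 groups had such a mouse. Since members move together within a mouse, the groups are not independent, and the flags are not compared with that rate. In 3xTg-AD mouse 12 this was the lowest value in 7 members, Rplp1 (620 CPM), Rpl13 (511 CPM), Rpl35a (271 CPM), Rps3a1 (253 CPM), Rpsa (249 CPM), Rpl36a (126 CPM) and Rpl23a (120 CPM). Mouse 12 was also the lowest of all mice in summed member level (17042 CPM) and in mitochondrially encoded transcripts (5976 CPM), and the part of the library in these values was not tested. WT control mouse 27 was the highest of its group in Rps13 (294 CPM) and Rpl10 (164 CPM). WT alcohol mouse 18 was the highest of its group in Rps26 (213 CPM) and Rpl7l1 (33.8 CPM). WT alcohol mouse 6 was the highest of its group in Rpl29 (71.8 CPM), where the other 3 had at most 15.5 CPM.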

How the results depend on the processing

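No paired analysis was possible because each mouse number occurs in 1 group only. Of 413 counts of called members recomputed under alternatives, 344 stayed within 1.5 times the main count and 69 did not, and of 529 values of single members, 417 kept their call, 112 lost it and 0 changed sign. Main counts of 0 that stayed 0 are among the 344. The comparison of classes entered these counts in total and again for each direction. With the 3 mice of high ribosomal RNA-like transcripts left out, the count of called members became 1 in all nuclei and 6 in the classes for 3xTg-AD alcohol versus WT control, 2 in the classes for 3xTg-AD versus WT control, 1 and 2 for 3xTg-AD alcohol versus 3xTg-AD, 0 in all nuclei for the genotypes averaged over treatment, and 3 and 7 for alcohol against air. With the ribosomal RNA-like share as a covariate it became 1 and 5 for 3xTg-AD alcohol versus WT control, 1 in the classes for 3xTg-AD versus WT control, 2 and 5 for 3xTg-AD alcohol versus 3xTg-AD, and 3 and 5 for alcohol against air. DESeq2 gave 7 in the classes for 3xTg-AD alcohol versus WT control, 4 in the classes for WT alcohol versus WT control, 1 in all nuclei for 3xTg-AD alcohol versus WT alcohol, and 2 and 10 for alcohol against air. Without the filter on low counts it was 0 in the classes for 3xTg-AD alcohol versus 3xTg-AD, 0 in all nuclei for the genotypes and 6 in the classes for alcohol against air. With the mitochondrial share as a covariate it was 0 in all nuclei for the genotypes and 5 in the classes for alcohol against air. The stricter class rule gave 0 for 3xTg-AD alcohol versus 3xTg-AD and 2 for 3xTg-AD alcohol versus WT alcohol in the classes. Members called higher in a class numbered 236, and 114 with DESeq2 size factors. The cause of these shifts was not tested. Without the 3 mice of high ribosomal RNA-like transcripts only mice 28 and 36 remained as WT controls. Shares of all genes called under these settings, and with single mice left out, are not given here. These counts therefore do not compare members with all genes.

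With each mouse left out in turn, counts in the classes ranged from 2 to 8 for 3xTg-AD alcohol versus WT control (5 without mouse 6 or 27, 8 without mouse 31), from 0 to 1 for 3xTg-AD versus WT control (1 without mouse 26), from 0 to 1 for WT alcohol versus WT control (1 without mouse 27), from 0 to 1 for 3xTg-AD alcohol versus 3xTg-AD (0 without mouse 13, 21 or 34), from 2 to 6 for 3xTg-AD alcohol versus WT alcohol (2 without mouse 4, 33 or 34), from 3 to 6 for the genotypes (3 without mouse 4, 18 or 33; without 4 or 33 Rpl29 was not tested in endothelial nuclei) and from 1 to 12 for alcohol against air (1 without mouse 4, 13, 18, 21, 26 or 33, 5 without mouse 27 or 34, 12 without mouse 31). In all nuclei they ranged from 0 to 1 for 3xTg-AD alcohol versus WT alcohol (1 without mouse 6 or 36), from 0 to 1 for the genotypes and from 0 to 4 for alcohol against air (0 without mouse 18 or 33, 4 without mouse 31), and were 0 throughout for the other 3 comparisons and the interaction. Endothelial values rest on few UMIs, for Rpl29 112 over all mice, and so have wide errors.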
